A study of Mus musculus with 6 samples.

Results

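The 10 transcription factor genes examined here mark or specify the somatic lineage of pregranulosa cells. They were measured in ovaries of newborn mice and comprise Foxl2, Runx1, Gata4, Gata6, Zfpm2, Wt1, Nr5a1, Nr0b1, Irx3 and Irx5. They were taken by gene symbol from a deposited expression table of 47122 gene models, in which each of the 10 symbols had a row. Bcas2 cKO ovaries came from mice in which Bcas2, a splicing factor gene, had been deleted in oocytes (conditional knockout, cKO, 3 samples), and the others from WT mice (3 samples). All were collected at 1 day post partum (dpp) and profiled by RNA sequencing of total RNA from the ovary. The sources used here give neither the Cre driver nor the strain nor the exons removed. They also leave unsaid whether a sample is 1 animal or a pool, so each p reflects sample-to-sample spread that may be technical. A free-text label mentions granulosa cells, whereas the titles, the tissue label and the oocyte markers in the data (Ddx4, the germ cell helicase, at 31.7 to 34.1 FPKM in cKO and 29.3 to 45.3 FPKM in WT ovaries) go with whole ovary.

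Pregranulosa cells are the flat somatic cells that enclose each oocyte in a primordial follicle, and they descend from the surface layer and the core of the fetal gonad. FOXL2, a forkhead protein, keeps them on the female path, since in the adult mouse its loss turns granulosa cells towards a Sertoli-like fate. RUNX1 acts beside FOXL2 in the fetal mouse ovary, GATA4 and GATA6 are zinc finger factors whose cofactor is the Zfpm2 product FOG2, and WT1 and NR5A1 (steroidogenic factor 1) are needed for the gonad to form at all. NR0B1 (DAX1) is an orphan receptor that represses NR5A1-driven transcription, and the Iroquois homeodomain factors IRX3 and IRX5 are needed in the mouse for contact between granulosa cells and the oocyte.

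Sequences upstream of a start site were available for 4 of the 10 genes (Foxl2, Runx1, Irx3 and Nr0b1) in a RefSeq table for build GRCm38.p6. A pair of them is shown, Foxl2 because a long noncoding RNA gene starts from the same interval in the opposite direction, and Nr0b1 because its levels alone did not overlap between the groups. Each line gives the 250 bases before the start site, 5′ to 3′ on the strand of the gene, at chr9:98955357-98955606 on the plus strand for Foxl2 and chrX:86191525-86191774 on the plus strand for Nr0b1. Capitals mark the matches to any of the 7 short motifs searched on either strand.
Foxl2: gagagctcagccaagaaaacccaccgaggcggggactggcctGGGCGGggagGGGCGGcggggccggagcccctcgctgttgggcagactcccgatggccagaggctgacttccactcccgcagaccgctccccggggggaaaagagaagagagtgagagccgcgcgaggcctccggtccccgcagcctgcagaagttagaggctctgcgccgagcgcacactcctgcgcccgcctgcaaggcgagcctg
Nr0b1: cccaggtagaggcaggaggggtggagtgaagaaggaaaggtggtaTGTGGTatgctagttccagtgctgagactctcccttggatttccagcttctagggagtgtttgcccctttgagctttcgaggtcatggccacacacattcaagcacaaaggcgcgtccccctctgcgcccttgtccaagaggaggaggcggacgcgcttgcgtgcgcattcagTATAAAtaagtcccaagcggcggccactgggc

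In Foxl2 the capitals are GC boxes (GGGCGG) at positions −208 and −198 from the start, and in Nr0b1 they are a RUNX core (TGTGGT) at −205 and a TATA box (TATAAA) at −32. Searched in windows of 300 bases, 250 before and 50 after the start, GC boxes occurred in 35.7%, the RUNX core in 16.8% and the TATA box in 13.6% of all 32851 promoters of the table. The other motifs searched were a GATA core (GATAA, 25.4% of all promoters), an NR5A1 element (AAGGTCA, 4.72%), a forkhead core (TAAACA, 13.4%) and a CCAAT box (CCAAT, 37.4%). None of those 4 strings stood in the Foxl2 or Nr0b1 window. Each of the 2 Runx1 windows held a CCAAT box on both strands, and the one with the lower GC content (45.0%) also held a forkhead core at 23 and RUNX cores at 29 and 37 bases after the start. The Irx3 window held none of the 7 motifs. GC content was 71.3% in the Foxl2 window, at or above 92.6% of all promoters, and 58.7% in that of Nr0b1. These matches describe letters and not binding.

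The data behind each gene were ample for most. Libraries held 16800421 to 18382568 reads in cKO and 17252045 to 19565275 reads in WT, as recovered from the deposited values. Counts per library ranged from 5840 to 8059 reads for Wt1 and from 3603 to 7166 for Foxl2, but from only 174 to 313 for Nr0b1, 313 to 1090 for Irx5 and 490 to 1519 for Zfpm2. Values are FPKM as the authors deposited them, fragment numbers divided by gene length and by a factor of each library. Levels can therefore be set side by side between genes. The factor did not follow the recovered read totals exactly, and further median-of-ratios scaling left the estimates unchanged. Bcas2 itself was at 18.9, 21.9 and 18.3 FPKM in cKO ovaries, against 54.5, 37.5 and 35.7 FPKM in WT ovaries, without overlap (limma on log2(FPKM + 1), log2 fold change −1.05, unadjusted p = 0.000502, adjusted p = 0.955). The WT libraries were not alike. WT replicate 1 lay apart on the first principal component (46.3% of the variance), and the 14 stroma and theca markers summed to 475.6 to 607.5 FPKM in cKO, against 1607, 735.2 and 458.2 FPKM in WT replicates 1, 2 and 3.

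None of the 10 transcription factor genes passed the test for a change in Bcas2 cKO ovaries. In limma 3.58.1 with Benjamini-Hochberg adjustment, all 10 passed the filter on low values (at least 1 FPKM in at least 3 of 6 samples) and 0 were called at an adjusted p under 0.05, where 0.0% of the 14589 tested genes were called. At an unadjusted p under 0.05 the count was also 0 of 10, against 443 genes or 3.04% of those tested. Their log2 fold changes, cKO over WT on the log2(FPKM + 1) scale, ran from −0.37 for Runx1 to 0.32 for Nr0b1. By point estimate 7 were lower and 3 higher in cKO, where 51.3% of all tested genes were lower. Their median was −0.18, beside −0.01 for all tested genes. In a bulk sample, fewer cells of a type and less RNA per cell cannot be told apart. The 95% intervals ran from −0.21 to 0.39 for Nr5a1, the narrowest, and from −1.07 to 0.97 for Irx5, the widest, so differences inside them could not be told from 0 with 3 samples a group.

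**Figure D1:**
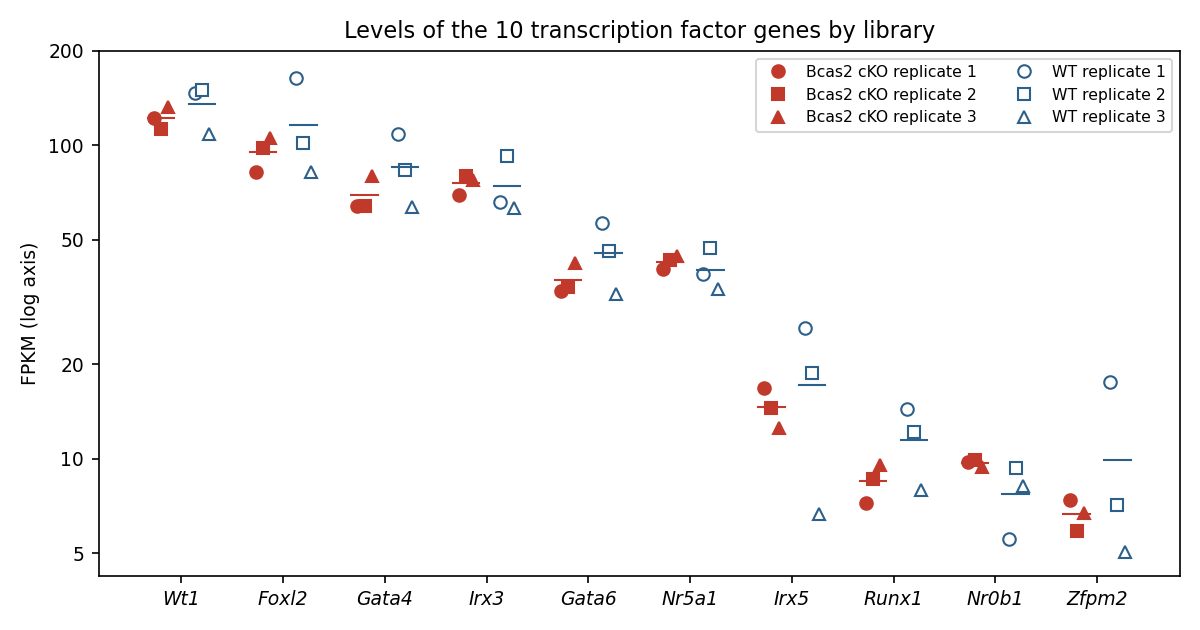
Level of each of the 10 transcription factor genes in FPKM (log axis) in the 3 Bcas2 cKO libraries (filled red) and the 3 WT libraries (open blue), with marker shape giving the replicate number and a horizontal line the group mean. The cKO points lie close together, while WT replicate 1 is highest for 6 genes and WT replicate 3 lowest for 8.

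As transcription factors go, several of these genes were among the most abundant in the newborn ovary. The deposited table assigns a transcription factor family to 1487 gene models, of which 962 averaged at least 1 FPKM over the 6 libraries. Among the 1487, Wt1 ranked 6 with a mean of 128.7 FPKM, Foxl2 ranked 10 with 105.5 FPKM, Gata4 20 with 77.1 FPKM and Irx3 22 with 74.7 FPKM. Gata6 and Nr5a1 followed at ranks 47 and 48, with 41.3 FPKM each. A wide gap separated them from Irx5 (15.9 FPKM, rank 193), Runx1 (9.99 FPKM, rank 333), Nr0b1 (8.70 FPKM, rank 380) and Zfpm2 (8.28 FPKM, rank 398). Neighbours in this order were not all distinct. Gata4 exceeded Irx3 in 3 of 6 libraries, Gata6 exceeded Nr5a1 in 1 of 6, and Runx1 exceeded Nr0b1 in 3 of 6, whereas Wt1 exceeded Foxl2 in 5 of 6 and Foxl2 exceeded Gata4 in 6 of 6. The exception for Wt1 was WT replicate 1, where Foxl2 was the highest of the 10. The ranks above pool both groups. By group mean, Wt1 ranked 6 in both, and Foxl2 ranked 12 in cKO and 8 in WT. In the same order, ranks were 25 and 19 for Gata4, 20 and 23 for Irx3, and 55 and 46 for Gata6. They were 44 and 55 for Nr5a1, 208 and 181 for Irx5, and 382 and 292 for Runx1. For Nr0b1 they were 340 and 430, and for Zfpm2 457 and 346.

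Foxl2, the forkhead gene of the ovarian lineage, stood at 82.3, 98.0 and 105.7 FPKM in cKO replicates 1, 2 and 3, against 163, 101 and 82.3 FPKM in WT replicates 1, 2 and 3. WT replicate 1 was high and the other 5 values overlapped. Foxl2 averaged 95.3 ± 11.9 FPKM in cKO and 115.6 ± 42.3 FPKM in WT (SD, n = 3 each), with a log2 fold change of −0.22 and a 95% interval of −0.81 to 0.36 (limma, adjusted p = 0.955). That sign rested on 1 library, since the log2 fold change was 0.05 without WT replicate 1 and −0.44 without WT replicate 3. Runx1, a runt-domain factor that marks the same cells, was at 7.24, 8.65 and 9.56 FPKM in cKO ovaries, against 14.4, 12.2 and 7.94 FPKM in WT ovaries. Only WT replicate 3 reached down into the cKO range. Runx1 had the lowest fold change of the 10, at −0.37 (95% interval −0.87 to 0.13), and it was −0.20 without WT replicate 1 and −0.59 without WT replicate 3. The ratio of Foxl2 to Runx1 was 11.1 to 11.4 in all 3 cKO libraries and in WT replicate 1, and 8.35 and 10.4 in WT replicates 2 and 3.

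The GATA factor genes ran in parallel from library to library. Gata4 was at 63.9, 63.9 and 79.8 FPKM in cKO, against 108, 83.0 and 63.5 FPKM in WT. Gata6 was at 34.3, 35.2 and 42.2 FPKM in cKO, against 56.4, 46.0 and 33.6 FPKM in WT. For both, WT replicate 1 was highest, WT replicate 3 lowest, and all cKO values lay between. Their log2 fold changes were −0.27 (95% interval −0.74 to 0.21) for Gata4 and −0.25 (−0.71 to 0.20) for Gata6, each with an adjusted p of 0.955 in limma. Both were −0.08 without WT replicate 1, and without WT replicate 3 they were −0.46 for Gata4 and −0.45 for Gata6. The ratio of Gata4 to Gata6 was 1.86, 1.81 and 1.89 in cKO, against 1.92, 1.81 and 1.89 in WT. Of the 45 ratios that the 10 genes allow, this one varied least over the 6 libraries, with a highest value 1.06 times the lowest, where the median ratio varied 2.06 times. It was singled out after its values were seen.

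Zfpm2, whose product FOG2 binds GATA4, was less steady. It was at 7.39, 5.86 and 6.70 FPKM in cKO ovaries, against 17.5, 7.14 and 5.04 FPKM in WT ovaries. WT replicate 1 stood far above the other 5 values, and the ratio of Gata4 to Zfpm2 was 8.64 to 11.9 in cKO, against 6.19, 11.6 and 12.6 in WT replicates 1, 2 and 3. The log2 fold change of −0.35 (95% interval −1.25 to 0.56) became 0.12 without that library and −0.69 without WT replicate 3. Nr2f2 and Tcf21, stroma transcription factors chosen after their values were seen, were also highest in WT replicate 1. Nr2f2 was at 6.23 to 8.51 FPKM in cKO and at 23.2 FPKM in WT replicate 1, and Tcf21 at 36.0 to 44.9 FPKM in cKO and at 95.9 FPKM in WT replicate 1. The part of such cells in the Zfpm2 value was not tested.

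Wt1 and Nr5a1, the factors of the early gonad, varied less. Wt1 was at 122, 112 and 132 FPKM in cKO, against 146, 150.1 and 109 FPKM in WT. All 3 cKO values fell inside the WT range, with means of 122.3 ± 10.1 FPKM in cKO and 135.1 ± 22.9 FPKM in WT (SD, n = 3 each) and a log2 fold change of −0.13 (95% interval −0.48 to 0.22). For Wt1 it was −0.07 without WT replicate 1, −0.05 without WT replicate 2 and −0.28 without WT replicate 3. Nr5a1 was at 40.2, 42.9 and 44.2 FPKM in cKO, against 38.8, 46.8 and 34.7 FPKM in WT. The WT values enclosed the cKO values, with a log2 fold change of 0.09 (95% interval −0.21 to 0.39), and WT replicate 1 did not stand out.

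Nr0b1, the X-linked gene of the DAX1 repressor, was the exception to the overlap. Its level was 9.80, 9.89 and 9.40 FPKM in cKO ovaries, against 5.56, 9.33 and 8.20 FPKM in WT ovaries. Every cKO value lay above every WT value, with a narrow gap between cKO replicate 3 and WT replicate 2. The means were 9.70 ± 0.256 FPKM in cKO and 7.70 ± 1.94 FPKM in WT (SD, n = 3 each), and the log2 fold change was 0.32, with a 95% interval of −0.09 to 0.74. Limma gave an adjusted p of 0.955 and the exact two-sided permutation test p = 0.1, the smallest that 3 against 3 allows. Among all tested genes, 4.2% had cKO values that lay entirely above WT, the share beside which this 1 of 10 stands. Without WT replicate 1, the lowest, the log2 fold change was 0.13, and without WT replicate 3 it was 0.38. Without WT replicate 2 it was 0.46, with an unadjusted 95% interval of 0.04 to 0.88 (limma adjusted p = 0.955). The ratio of Nr5a1 to Nr0b1, the activator to its repressor, was 4.11, 4.34 and 4.70 in cKO, against 6.98, 5.02 and 4.23 in WT.

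Irx3 and Irx5 lie on chromosome 8 in the same Iroquois cluster, at 92525139 to 92528282 and 93084424 to 93088084 in the table's coordinates (GRCm39), and differed in behaviour. Irx3 was at 69.4, 79.9 and 77.2 FPKM in cKO, against 66.0, 92.6 and 63.2 FPKM in WT. Its cKO values all lay inside the WT range, with a log2 fold change of 0.05 (95% interval −0.33 to 0.42) that was −0.02 without WT replicate 1 and −0.05 without WT replicate 3. Irx5 was at 16.8, 14.5 and 12.6 FPKM in cKO, against 26.0, 18.8 and 6.67 FPKM in WT. The WT values of Irx5 spanned 3.90 times from lowest to highest and enclosed the cKO values, which spanned 1.33 times. Its log2 fold change was −0.05 (95% interval −1.07 to 0.97), and it became −0.58 without WT replicate 3 and 0.33 without WT replicate 1. The ratio of Irx3 to Irx5 was 4.14, 5.52 and 6.15 in cKO, against 2.54, 4.94 and 9.48 in WT.

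**Figure D2:**
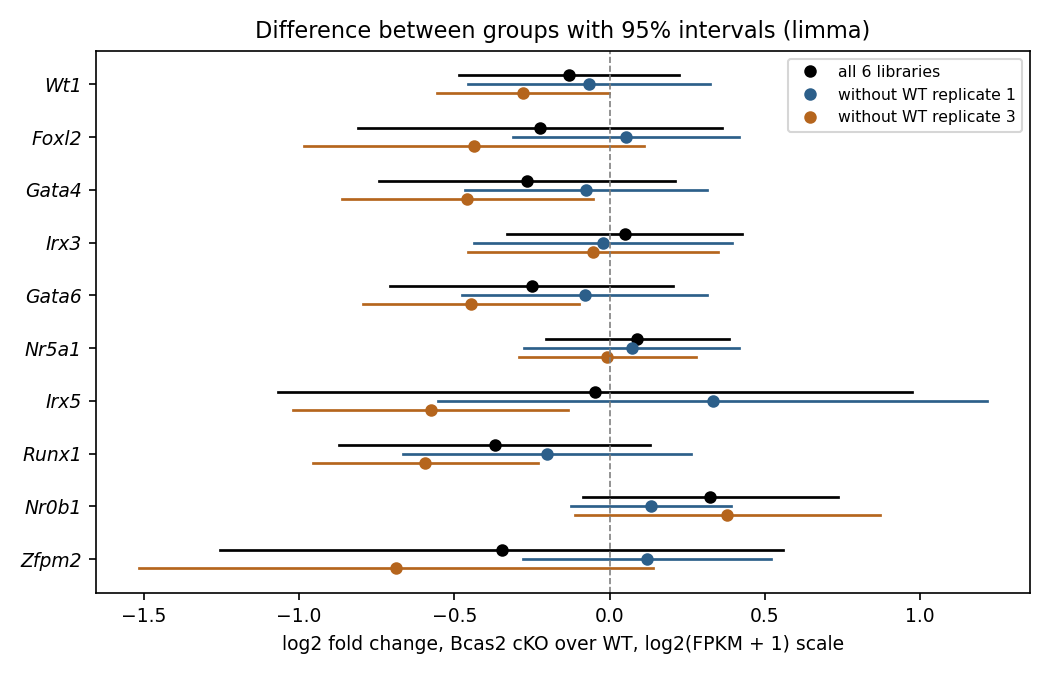
Log2 fold change, Bcas2 cKO over WT on the log2(FPKM + 1) scale, with 95% intervals from limma, for all 6 libraries (black), without WT replicate 1 (blue) and without WT replicate 3 (brown). With all libraries every interval includes 0, and the median of the 10 estimates was −0.18 with all libraries, 0.02 without WT replicate 1 and −0.44 without WT replicate 3. Without WT replicate 3 the unadjusted intervals of Gata4, Gata6, Runx1, Wt1 and Irx5 lie below 0, where none passed the adjusted test. In that setting 1056 of the 14589 tested genes had an unadjusted p under 0.05 in limma, against 443 with all libraries.

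The spread between WT libraries was the main feature of these genes. The SD of log2 values was larger in WT than in cKO for 10 of 10 members, beside 64.0% of all tested genes. All 3 cKO values lay within the WT range for 8 of 10, beside 29.2% of tested genes, the exceptions being Runx1 and Nr0b1. WT replicate 1 held the highest value for 6 of 10 (27.6% of tested genes) and WT replicate 3 the lowest for 8 of 10 (17.8%). Measured against each gene's mean over the 6 libraries, the median of the 10 was −0.08, −0.11 and 0.05 log2 units in cKO replicates 1, 2 and 3, against 0.49, 0.18 and −0.25 in WT replicates 1, 2 and 3. In WT replicate 3 all 10 were below their own mean. With WT replicate 1 left out, 5 of the 10 estimates were lower and 5 higher in cKO, and with WT replicate 3 left out 9 were lower, with none called in either case (smallest adjusted p 0.599 without WT replicate 3).

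**Figure D3:**
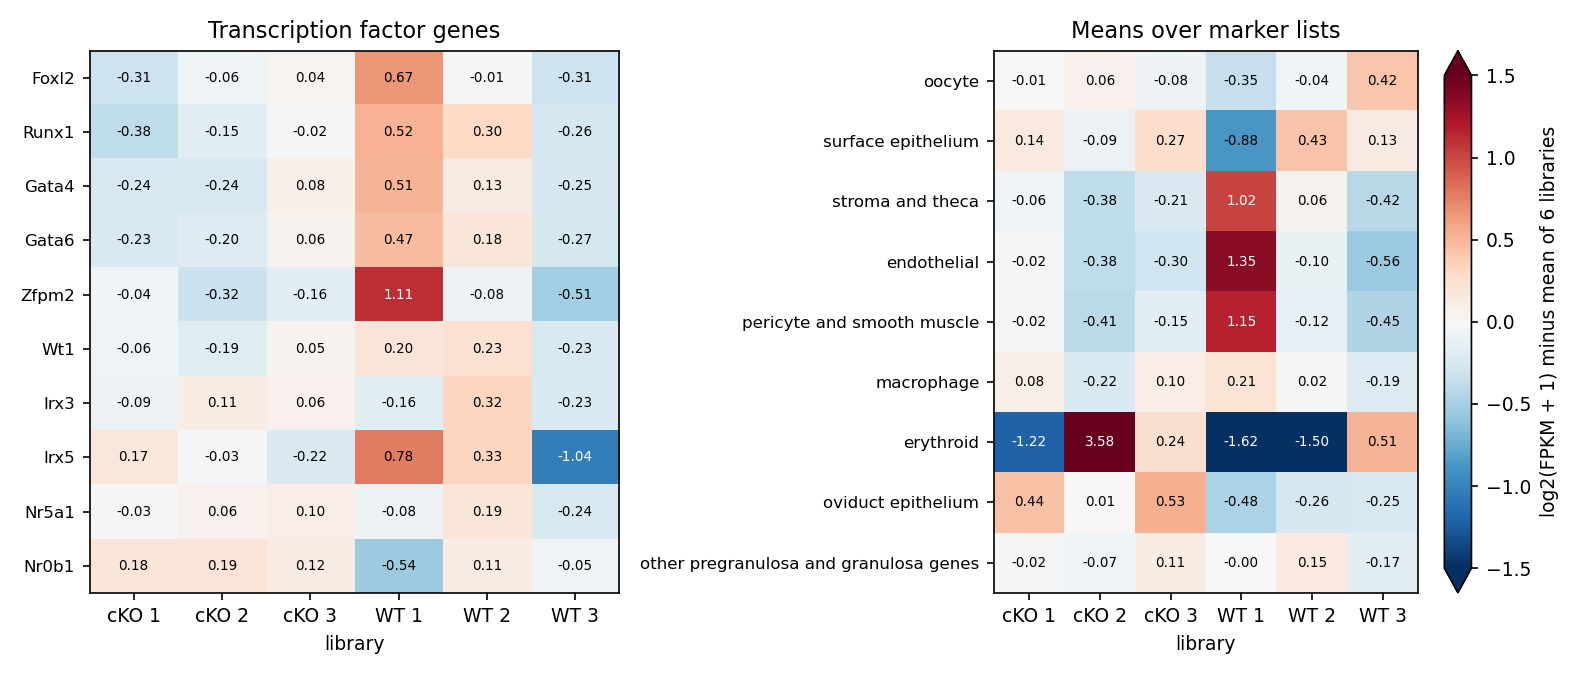
Deviation of log2(FPKM + 1) from the mean of the 6 libraries, printed in each cell, for the 10 transcription factor genes (left) and for the mean over the tested genes of each marker list (right), by library. WT replicate 1 is high for stroma, endothelial and pericyte lists and for Zfpm2 and Irx5, and WT replicate 3 is high for the oocyte list and low for all 10 genes. Colours end at 1.5 log2 units, which the erythroid list exceeds in cKO replicate 2.

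Several lists of markers of other ovarian cells also differed between the WT libraries, and their part in the values of the 10 genes was not tested. The 15 oocyte markers summed to 1121 to 1314 FPKM in cKO and 961.2 to 1707 FPKM in WT, with the WT extremes in replicates 1 (low) and 3 (high). Endothelial markers (11 genes) summed to 58.8 to 77.1 FPKM in cKO and 51.3 to 220.2 FPKM in WT, and pericyte and smooth muscle markers (10 genes) to 21.9 to 28.8 FPKM in cKO and 18.9 to 84.7 FPKM in WT, each highest in WT replicate 1. Surface epithelium markers (10 genes) went the other way, at 470.5 to 545.8 FPKM in cKO and 218.2 to 574.3 FPKM in WT, lowest in WT replicate 1. Macrophage markers (10 genes) summed to 26.2 to 37.3 FPKM in cKO and 27.2 to 38.5 FPKM in WT. Erythroid markers (10 genes) summed to 699.4 to 13733 FPKM in cKO and 405.4 to 1211 FPKM in WT. The 13733 FPKM came from cKO replicate 2, against 699.4 and 1239 FPKM in cKO replicates 1 and 3. Markers of mesonephros and oviduct epithelium (10 genes) summed to 62.4 to 81.9 FPKM in cKO and 35.9 to 61.6 FPKM in WT. Of the 7 of these that were tested, 0 were called, and 4 had an unadjusted p under 0.05, beside 3.04% of all tested genes. Each was higher in cKO by point estimate, namely Cldn3, Pax8, Foxj1 and Wfdc2. Cldn3, a tight junction gene, was at 4.15, 2.63 and 3.38 FPKM in cKO, against 0.591, 0.866 and 1.09 FPKM in WT (limma adjusted p = 0.883), and Pax8, a paired box factor gene, at 4.34, 2.96 and 3.74 FPKM in cKO, against 2.50, 1.46 and 1.43 FPKM in WT (limma adjusted p = 0.955). Both lay entirely above WT in cKO, as did 4.2% of all tested genes. They were named for their small p, so their separation cannot be set against the 10 transcription factor genes. No marker of these lists was at 0 in all 6 libraries. Several of the 10 transcription factor genes, Gata4 and Wt1 among them, are also known from stroma or surface epithelium.

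Relatives of the 10 genes were detected unevenly. Of 16 paralogues and cofactors, 7 passed the filter, and 0 were called, with 4 lower and 3 higher in cKO and a median log2 fold change of −0.01. Irx1, Irx2, Irx4 and Irx6 stayed under 1 FPKM in all 6 libraries, as did Runx2, Runx3, Gata5, Foxl1 and Foxl3. Cbfb, the common partner of the RUNX proteins, was present at 25.2 to 29.3 FPKM in cKO and 23.9 to 30.7 FPKM in WT. Nr0b2, the closest relative of Nr0b1, was named for its small p. It was at 2.24, 2.41 and 2.91 FPKM in cKO, against 1.07, 1.75 and 2.12 FPKM in WT (log2 fold change 0.43, limma adjusted p = 0.955), on 24 to 69 reads. Its cKO values lay entirely above WT, as did those of 4.2% of all tested genes, and WT replicate 1 was lowest. Nr5a2, a nuclear receptor related to Nr5a1 and active in granulosa cells of growing follicles, was at 1.49 to 2.14 FPKM in cKO, and at 10.8, 1.68 and 1.56 FPKM in WT. Its WT replicate 1 value stood alone. Gata1 was at 7.23, 13.9 and 13.5 FPKM in cKO, against 2.42, 8.72 and 16.6 FPKM in WT. WT replicate 1 was low for that gene, and the groups overlapped.

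Other transcription factors of the gonad gave no call either. Of 20 listed, 17 were tested and 0 called, with a median log2 fold change of −0.17. By point estimate 14 were lower and 3 higher in cKO, where 51.3% of all tested genes were lower. WT replicate 1 stood apart, with a mean log2(FPKM + 1) over the 17 of 3.75. That mean was 3.32 and 3.16 in WT replicates 2 and 3, and 3.18 to 3.31 in cKO. Foxo1, a forkhead factor of the insulin pathway, was at 11.7 ± 0.940 FPKM in cKO and 14.4 ± 2.41 FPKM in WT, and Nr2c1, an orphan receptor, at 4.40 ± 0.122 FPKM in cKO and 5.28 ± 0.566 FPKM in WT (SD, n = 3 each). Esr2, the estrogen receptor of granulosa cells, was at 1.91 ± 0.357 FPKM in cKO and 3.55 ± 2.21 FPKM in WT (SD, n = 3 each), where 6.09 FPKM came from WT replicate 1. All 3 had an adjusted p of 0.955 in limma.

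Further genes of the pregranulosa programme were as mixed. Of 34 listed, 28 were tested and 0 called, with 14 lower and 14 higher in cKO and a median log2 fold change of −0.01. Rspo1, which activates WNT signalling in the ovary, was at 77.6, 81.1 and 76.0 FPKM in cKO, against 57.8, 71.2 and 54.5 FPKM in WT, without overlap and with a log2 fold change of 0.36. Notch2, a receptor that pregranulosa cells use to read oocyte ligands, was at 15.6, 11.5 and 20.7 FPKM in cKO, against 27.1, 23.1 and 18.6 FPKM in WT. Gng13, a G protein subunit gene, was at 95.03, 115 and 68.6 FPKM in cKO, against 38.0, 82.4 and 55.3 FPKM in WT. Their adjusted p was 0.955 each in limma, and only Rspo1 had an unadjusted p under 0.05 (0.0197).

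Genes of the testis path were listed because FOXL2 opposes that path in the adult mouse ovary. Of 14 listed, 7 passed the filter and 0 were called, with 2 lower and 5 higher in cKO and a median log2 fold change of 0.17. Sox9, the Sertoli factor gene, was chosen after its values were seen, and stood at 1.44, 1.20 and 0.794 FPKM in cKO, against 1.83, 0.875 and 1.00 FPKM in WT. Ptgds, which encodes prostaglandin D synthase, was at 7.90 ± 1.52 FPKM in cKO and 6.26 ± 0.316 FPKM in WT, and Col9a3, a collagen chain gene, at 5.11 ± 0.249 FPKM in cKO and 4.12 ± 1.28 FPKM in WT (SD, n = 3 each). Aard was at 33.1 ± 3.64 FPKM in cKO and 29.1 ± 1.70 FPKM in WT (SD, n = 3 each). The 3 had an adjusted p of 0.955 in limma. Sry, the sex-determining gene of the Y chromosome, was listed at 0 in all 6 libraries. A Y-linked gene is not looked for in ovaries, so its 0 does not bear on the testis path.

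Foxl2 has a neighbour that starts 297 bases away on the other strand, the long noncoding RNA gene Foxl2os. In the table's coordinates (GRCm39) Foxl2 lies on chromosome 9 from 98837660 to 98840179 on the plus strand and Foxl2os from 98831208 to 98837363 on the minus strand, so the gene models do not overlap, and the Foxl2 sequence printed above falls between both starts. Foxl2os was at 17.9, 15.8 and 12.3 FPKM in cKO, against 24.4, 15.9 and 9.68 FPKM in WT. WT replicate 1 was highest and WT replicate 3 lowest, as for Foxl2. Within cKO the order was the reverse of that of Foxl2, and the ratio of Foxl2 to Foxl2os was 4.59, 6.20 and 8.61 in cKO, against 6.69, 6.38 and 8.49 in WT. Its log2 fold change was −0.04 (95% interval −0.77 to 0.69, limma adjusted p = 0.991).

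In the same coordinates Runx1 spans 92398354 to 92622962 on chromosome 16 (minus strand), Gata4 63436363 to 63509161 on chromosome 14 (minus strand) and Zfpm2 40518438 to 40967988 on chromosome 15 (plus strand). Wt1 spans 104956874 to 105003959 (plus strand) and Nr5a1 38582668 to 38604554 (minus strand), both on chromosome 2, and Nr0b1 spans 85235381 to 85239553 on the X chromosome (plus strand). Runx1 and Zfpm2 are overlapped by predicted genes, of which Gm30281 in Runx1 was at 2.14, 0.681 and 0.928 FPKM in cKO, against 1.32, 1.16 and 0.587 FPKM in WT. Gm18285, a pseudogene on the strand of Zfpm2, was at 3.13, 2.32 and 2.75 FPKM in cKO, against 3.53, 2.999 and 4.66 FPKM in WT. WT replicate 1 was high for neither in the way it was for Zfpm2.

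Wt1 has a divergent neighbour like that of Foxl2, with Wt1os lying 19 bases before it on the other strand. Wt1os was at 13.3, 9.77 and 12.8 FPKM in cKO, against 13.8, 14.2 and 10.8 FPKM in WT. Among cKO libraries replicate 2 was lowest for Wt1 and for Wt1os, and among WT libraries replicate 3 was lowest and replicate 2 highest for both. Gata6 and Irx3 are overlapped by the antisense genes Gata6os (9.73, 10.4 and 11.1 FPKM in cKO, against 8.90, 12.3 and 7.69 FPKM in WT) and Irx3os (3.63, 4.003 and 3.56 FPKM in cKO, against 2.18, 4.03 and 3.10 FPKM in WT). The sources used here do not say whether counting used strand, so reads of Gata6 and Irx3 may be shared with those genes. The same holds for Runx1 and Gm30281, also on opposite strands. Zfpm2 and Gm18285 lie on the same strand, so their reads may be shared in either case. Crnde, a noncoding gene 1676 bases from Irx5 on the other strand, was at 12.5, 11.1 and 7.38 FPKM in cKO, against 12.7, 12.3 and 8.94 FPKM in WT, with a log2 fold change of −0.14.

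**Figure D4:**
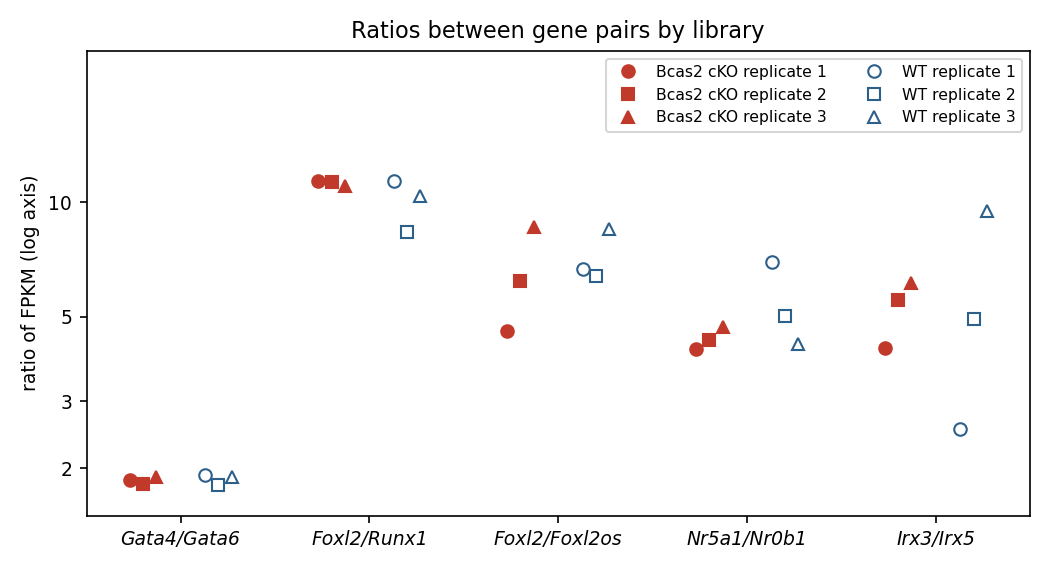
Ratio of FPKM within each library (log axis) for 5 gene pairs, in the 3 Bcas2 cKO libraries (filled red) and the 3 WT libraries (open blue). The ratio of Gata4 to Gata6 stayed between 1.81 and 1.92, while that of Irx3 to Irx5 ran from 2.54 to 9.48.

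Likeness of pattern was measured as the root mean square difference between log2(FPKM + 1) profiles over the 6 samples, each gene taken relative to its own mean, among tested protein-coding genes with a mean of at least 5 FPKM. For Foxl2, the 5 closest of 8841 genes were Zfp362, Pkdcc, Sbk1, Trp53i11 and Efnb1, at 0.0448 to 0.0746 log2 units, where the pattern of Foxl2 itself had a root mean square of 0.328. Gata4 was closest to B4gat1 (0.0250) and had Gata6 in the third place (0.0335), and Gata6 was closest to Chpf (0.0258) with Gata4 at rank 2. Runx1 was nearest to H2bc21 (0.0802), again with Gata6 in the third place (0.0880). Nr5a1 was nearest to Cndp2 (0.0320), Wt1 to Adcy3 (0.0249), Irx3 to Naaa (0.0516) and Zfpm2 to Nrep (0.0628). The gene nearest to Nr0b1 was 0610009B22Rik (0.0165). For the other genes the most similar of the 10 ranked lower: Nr5a1 at rank 5 for Irx3, Gata4 at 42 for Foxl2, Irx3 at 50 for Nr5a1, Zfpm2 at 117 for Irx5, Foxl2 at 311 for Zfpm2, Gata6 at 882 for Wt1 and Irx3 at 1816 for Nr0b1. All genes share the same 6 libraries, 1 of which stands apart.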

How the data were processed

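RNA of whole ovaries at 1 dpp from 3 Bcas2 cKO and 3 WT samples was measured. The authors deposited FPKM values for 47122 gene models, with gene length, symbol, biotype, transcription factor family and GRCm39 coordinates. Alignment tool HISAT2 2.0.5 is listed per the submitters' processing notes, as are 2 builds, mm10 and GRCm39. The sources used here name no counting tool, annotation release or strand setting. Columns were matched to samples by the sample descriptions.

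FPKM were tested as log2(FPKM + 1), keeping genes with at least 1 FPKM in at least 3 of 6 samples (14589 genes), with limma 3.58.1 in R 4.3.3 across all genes (trend in the prior spread, two-sided, Benjamini-Hochberg, threshold 0.05), which understates changes of low genes. The fit was also run on simulated data with equal spread in every gene and library. The real libraries differ in spread, so that run cannot show which changes the fit detects here. Multiplying FPKM by gene length and dividing by a step fitted to the values of each library gave reads. They were whole to within 0.05 read for 100% of the values checked, the highest of each library left out. Exact permutation tests used scipy 1.17.1. Promoter sequences are RefSeq's for GRCm38.p6, used without converting coordinates.

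Members, lists and tests were chosen with earlier results of these data known. Named genes are the members, Bcas2, up to 3 tested genes of smallest p per list, listed genes at 0, the next gene models and the closest patterns (that of Irx5 is not reported here). Others, Ddx4, Cbfb and untested relatives among them, were chosen after their values were seen. Alternatives were other pseudocounts, filters, scalings, weights, a replicate block, leaving out each library, and, added after seeing the data, voom on recovered reads.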

Additional observations from a re-analysis of the deposited data

How the results depend on the processing

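Under 17 alternatives 0 of the 10 members were called, with a smallest adjusted p of 0.288 in limma. Over the whole table the count of called genes stayed at 0 except with array weights (1, Mir6999) and without cKO replicate 2 (1, Pcna-ps2), so that leaving out a library gave 0 to 1. The 170 member estimates included 12 with the opposite sign. Many of the 170 repeat the main estimate, since the other filters, the fit without a trend and the replicate block cannot change it. Median-of-ratios scaling left it unchanged as well. Irx3 was at −0.26 with array weights and −0.033 after rescaling to TPM, Nr5a1 at −0.12 with array weights, and Irx5 at 0.016 with voom on recovered reads. Leaving out 1 library each, the log2 fold change ranged from −0.44 to 0.053 for Foxl2, −0.053 to 0.22 for Irx3, −0.58 to 0.33 for Irx5, −0.0070 to 0.20 for Nr5a1 and −0.69 to 0.12 for Zfpm2. It ranged from −0.46 to −0.08 for Gata4, −0.45 to −0.08 for Gata6, −0.59 to −0.20 for Runx1, −0.28 to −0.05 for Wt1 and 0.13 to 0.46 for Nr0b1, and these 5 kept their sign in each alternative. The count at an unadjusted p under 0.05, 443 genes, was 1990 with array weights, 1147 without a filter on low values, 254 with a filter at 5 FPKM, and 253 to 1056 with 1 library left out (lowest without cKO replicate 2, highest without WT replicate 3). Bcas2 stayed lower in cKO throughout (largest unadjusted p 0.00305).

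With the replicate number as a block 0 genes were called, and 432 had an unadjusted p under 0.05. Same-numbered samples correlated at 0.221, 0.0135 and −0.0278 in their deviations from the group means, so the numbers were not read as pairs. Reads per library were lowest for Nr0b1 (174 to 313).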
